A study of Homo sapiens with 4 samples.

Results

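Interferon-stimulated genes and guanylate-binding protein genes were examined in MV4-11, a cell line from human acute myeloid leukaemia with monocytic features and a KMT2A-AFF1 fusion. The set was defined by gene symbol and comprised 48 genes, of which 39 are chiefly type I interferon genes and 9 are genes best known as targets of interferon-gamma (GBP1 to GBP5, IRF1, CXCL9, CXCL10 and IDO1). A probe set of its own was named for 47 of them, among 22357 genes named in this way on the array. STAT2 was not analysed here, and DDX58 is listed under its current symbol RIGI. Where a gene had several probe sets, the brightest by mean signal stood for it.

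The series compares short hairpin RNAs against RUNX1, a transcription factor of blood cell development, with a control hairpin against luciferase. The 4 arrays, 1 per hairpin, are labelled control, moderate, profound 1 and profound 2, where the last 3 words stand for the stated depth of RUNX1 knockdown. Every culture, the control included, had been transduced with its hairpin and kept in 3 µM doxycycline for 24 h. Whether a hairpin was delivered to a clone or a pool is not given in the sources used here. The values are log2 signals after robust multi-array averaging (RMA), which subtracts background, gives all arrays the same distribution and combines the probes of each set into 1 value.

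Type I interferons bind the receptor IFNAR1-IFNAR2, and the kinases JAK1 and TYK2 then activate a complex with STAT2 and IRF9 that binds the interferon-stimulated response element (ISRE). Interferon-gamma binds IFNGR1-IFNGR2 and acts mainly through the gamma-activated site (GAS). The induced proteins bind or degrade foreign RNA, block viral entry or assembly, conjugate the ubiquitin-like protein ISG15, or attract lymphocytes. Many genes answer to both interferon types, so the division used here is one of emphasis.

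The promoters of these genes carry the 2 elements in different combinations. RefSeq promoter sequences of assembly GRCh38.p14, each from 250 bases before to 50 bases after the gene start, were matched by symbol for 35 of the 47 measured genes. Stretches of 80 bases upstream of the start are shown for 8 genes: the chromosomal neighbours SAMD9 and SAMD9L, which differed from control in opposite directions, and 6 genes that illustrate the arrangements of the elements. Letters are 5′ to 3′ on the strand of the gene, and capitals mark the ISRE core, GAAANN followed directly by GAAA, on either strand and the GAS core TTCNNNGAA, which reads the same on both strands.
SAMD9, chr7:93118050-93118129, minus strand: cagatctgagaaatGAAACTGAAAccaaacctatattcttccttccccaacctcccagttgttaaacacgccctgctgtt
SAMD9L, chr7:93148456-93148535, minus strand: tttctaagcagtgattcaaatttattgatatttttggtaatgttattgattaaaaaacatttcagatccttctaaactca
IFIT1, chr10:89392473-89392552, plus strand: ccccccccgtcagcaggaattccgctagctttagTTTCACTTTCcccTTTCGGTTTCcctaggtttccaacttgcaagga
ISG15, chr1:1013347-1013426, plus strand: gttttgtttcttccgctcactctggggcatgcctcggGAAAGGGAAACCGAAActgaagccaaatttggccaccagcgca
HERC5, chr4:88456979-88457058, plus strand: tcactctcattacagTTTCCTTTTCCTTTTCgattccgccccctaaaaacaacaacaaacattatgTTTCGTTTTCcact
BST2, chr19:17405701-17405780, minus strand: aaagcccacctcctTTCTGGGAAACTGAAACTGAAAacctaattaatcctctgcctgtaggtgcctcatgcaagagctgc
IRF1, chr5:132490844-132490923, minus strand: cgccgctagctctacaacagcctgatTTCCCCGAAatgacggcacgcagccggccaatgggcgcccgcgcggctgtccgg
CXCL10, chr4:76023658-76023737, minus strand: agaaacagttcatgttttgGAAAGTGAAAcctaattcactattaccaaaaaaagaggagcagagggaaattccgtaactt
These stretches run from base -150 to base -71 relative to the start, except those of HERC5 (-140 to -61) and CXCL10 (-240 to -161). The ISRE cores of ISG15 overlap each other, as do the upstream pair in HERC5, and in BST2 a GAS core runs into a pair of overlapping ISRE cores. IFIT1 has its pair of ISRE cores side by side, IRF1 has a GAS core alone, and the SAMD9L stretch holds no match.

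Among the 35 genes with a promoter sequence, 26 (74.3%) held an ISRE core in at least 1 listed promoter, against 4.38% of 27305 genes. A GAS core was found for 10 of 35 (28.6%), against 9.38% of all genes. The set was assembled from genes known to answer to interferon, so this excess describes the set. The core hexamer bound by RUNX factors, TGTGGT on either strand, was found for 5 of 35 (14.3%: IFIT3, IFITM1, IFI16, XAF1 and CXCL9), against 15.6% of all genes. A match of letters is not evidence of binding, and the absence of a match says only that the letters are not in this window.

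Array medians lay at 3.07 to 3.09 log2 units, and 13060 genes exceeded the table median of 3.08 in at least 1 array. With 1 array per hairpin no test was made across samples, and 4 arrays give each value little precision. A gene was called higher or lower at 1.5-fold (0.58 log2 units). Beside some of the differences stands the spread, a robust SD of that difference over tested genes of like level. For moderate minus control it was 0.25 log2 units in the lowest of 6 level classes and 0.11 in the highest. The RUNX1 probe set, shared with LOC100506403, read 4.27 (control), 4.33 (moderate), 4.07 (profound 1) and 4.04 (profound 2), so it does not show a graded knockdown. The submitters' description fields name RUNX2 and RUNX3 for the arrays labelled profound 1 and 2. RUNX2 read 6.23, 6.16, 6.17 and 6.33, and RUNX3 read 8.17, 8.28, 7.75 and 7.74 in the same order, so RUNX3 was lower in both arrays labelled profound (-0.42 and -0.43), by more than RUNX1 was (-0.19 and -0.22). Every direction below is therefore one between labels.

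All 7 measured of 9 listed markers of a monocytic leukaemia line were above the table median. CD68, a macrophage glycoprotein, read 9.28 and 9.14 in control and moderate and 9.98 and 9.91 in profound 1 and 2. It was the 1 of these 7 called against control, in profound 1 and in profound 2. The shares over all tested genes were 6.81% and 2.4%. Of the 7, 5 lay above control in profound 1 and 4 in profound 2, with median differences of 0.03 and 0.15 log2 units. Of the 4 markers of plasmacytoid dendritic cells, the cells specialised in interferon production, LILRA4 and CLEC4C were below the table median in all 4 arrays. IL3RA (7.13, 7.59, 7.47 and 7.14 in the order control, moderate, profound 1 and profound 2) and TCF4 (7.15, 7.30, 6.76 and 6.78) were above it. Of 4 T and NK cell markers, CD3D, CD3E and GNLY were below it and NKG7 was above it (6.52, 6.87, 6.41 and 6.66). MS4A1 of B cells was below it, and CD79A was above it and read 4.20, 4.64, 4.80 and 4.12 in the order control, moderate, profound 1 and profound 2. Of the fibroblast and epithelial markers, DCN, EPCAM and CDH1 were below it in all 4 arrays. COL1A1 (3.62, 3.53, 3.58 and 3.39 in the same order) and KRT18 (3.25, 3.15, 3.35 and 3.15) were above it. The part of these genes' cells in the results was not tested.

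Of the 47 measured genes, 32 exceeded the table median in at least 1 array, 28 of 38 type I genes and 4 of 9 interferon-gamma genes. Over all named genes after the same exclusions 72.2% did. Among the 32, 28 were above it in all 4 arrays. MX1, IFI27, GBP2 and GBP3 were above it in some arrays only, so their place among the 32 depends on the arrays in which they are high.

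The remaining 15 genes stayed below the table median in every array, between 1.55 and 3.06 log2 units. They include many of the genes most often used as indicators of an interferon response: IFIT1, IFIT2, IFIT3 and IFIT5, RNA-binding proteins that block translation of viral RNA; IFI44 and IFI44L; OAS1 and OAS3; ISG20, an exonuclease; and EPSTI1. On the interferon-gamma side they are GBP1, GBP5, the chemokine genes CXCL9 and CXCL10, and IDO1, which degrades tryptophan. IFIT1 read 1.56, 1.69, 1.71 and 1.63 in the order control, moderate, profound 1 and profound 2, and CXCL10 read 1.88, 1.99, 2.10 and 1.93. None of the 15 differed by 1.5-fold between any pair of arrays, and the largest difference was 0.54 log2 units. At such levels RMA compresses differences, so a small change here could go unseen. Calls were rare among dim genes in general. Against control, 191, 890 and 313 of the 13060 tested genes were called in moderate, profound 1 and profound 2. Without the filter 269, 977 and 395 of 18092 genes were. The absence of calls among the 15 is therefore not particular to them. Of the 12 dim genes with a promoter sequence, 11 carried an ISRE core, against 15 of 23 of the others.

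The genes of the interferons themselves were at the same floor. All 9 measured ligand genes (IFNA1, IFNA2, IFNA8, IFNB1, IFNE, IFNK, IFNW1, IFNG and IFNL1) stayed below the table median in every array. IFNL1, the brightest of them, read 2.81 in the control array and 2.76, 2.61 and 2.83 in those labelled moderate, profound 1 and profound 2. The receptor genes, in contrast, were measured above the median without exception, and none of 6 was called in any comparison with control. Their median difference was 0.09 log2 units for moderate, 0.29 for profound 1 and 0.08 for profound 2. Over all tested genes the medians were 0.006, -0.002 and -0.002. The shares called were 1.46%, 6.81% and 2.4%, so the absence of calls among 6 genes says little about the receptors. IFNAR1 read 8.24, 8.36, 8.29 and 8.28 in the order control, moderate, profound 1 and profound 2. IL10RB, the shared chain of the lambda interferon receptor, lay closest to the size rule, at 0.57 in profound 1.

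Among the genes that receive the signal, differences of 1.5-fold appeared in the array labelled profound 1 alone, in 3 genes. JAK1, the kinase common to both interferon receptors, read 8.29 in control, 8.28 in moderate and 8.21 in profound 2, but 7.50 in profound 1, a difference of -0.79 log2 units. STAT5A, a signal transducer of cytokine receptors, read 6.23, 6.31 and 6.27 in those 3 arrays and 6.98 in profound 1 (0.75). SOCS3, an inhibitor of JAK kinases, read 4.84, 4.94 and 4.73 against 4.22 in profound 1 (-0.62). The spreads for these 3 genes in profound 1 against control were 0.22, 0.28 and 0.28. The called genes were 2 of 6 JAK-STAT genes and 1 of 9 negative regulators, where 6.81% of all tested genes were called in this comparison.

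**Figure D1:**
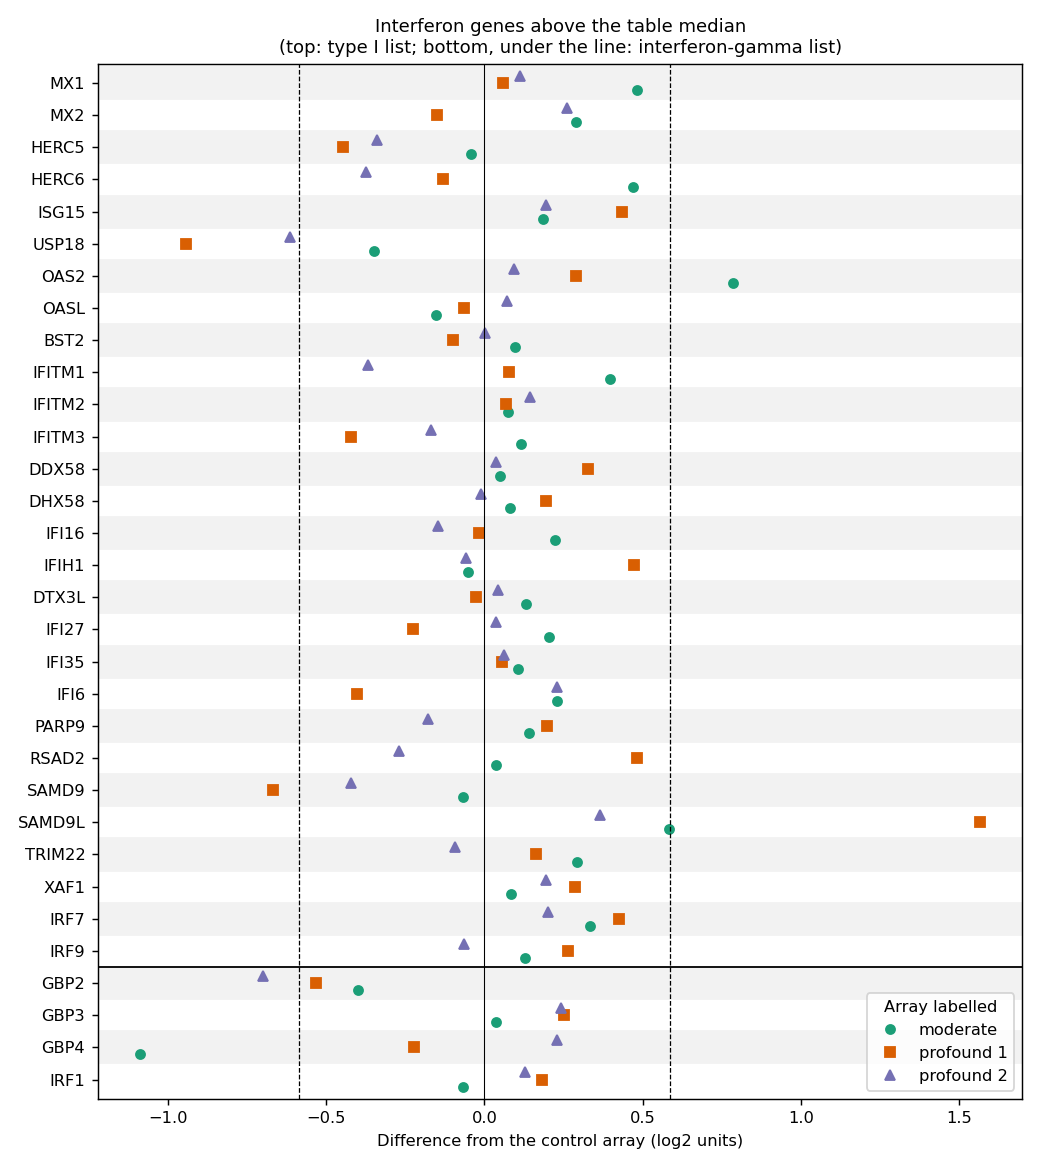
Difference of each of the 32 interferon genes above the table median from the control array, in log2 units, for the arrays labelled moderate (circles), profound 1 (squares) and profound 2 (triangles); dashed lines mark 1.5-fold. Most points lie inside the lines, and SAMD9L (1.57) and USP18 (-0.94) in profound 1 and GBP4 (-1.09) in moderate lie furthest out.

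None of the 3 tested transcription factors of the set was called against control. The shares over all tested genes were 1.46% in moderate, 6.81% in profound 1 and 2.4% in profound 2. IRF7, the factor that amplifies interferon production, read 4.18 in control, 4.52 in moderate, 4.61 in profound 1 and 4.38 in profound 2. All 3 differences were positive and none reached 1.5-fold. IRF9, the DNA-binding subunit of the ISRE complex, read 5.37, 5.50, 5.64 and 5.31 in the same order. A second IRF9 probe set read 4.48, 4.25, 4.40 and 4.06, with differences from control of -0.23, -0.08 and -0.42, so the 2 probe sets give opposite signs for moderate and profound 1. IRF1, the early factor of the interferon-gamma response, lay between 5.42 and 5.67. Of the other IRF genes, 1 of 5 was called in moderate, where 1.46% of all tested genes were, and none in profound 1 or profound 2. The called gene was IRF4, a lymphoid and dendritic factor, which read 3.83 in control and 4.44 in moderate (0.61, at a spread of 0.22).

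No sensor of foreign nucleic acid was called against control. The 3 RIG-I-like receptors, which sense RNA in the cytoplasm, each read highest in the array labelled profound 1. That array was the highest for 30.5% of all tested genes. IFIH1, which encodes MDA5, read 4.96 in control, 4.90 in moderate and 4.90 in profound 2, and 5.43 in profound 1. DDX58, which encodes RIG-I, read 5.64, 5.69 and 5.67 in those 3 arrays and 5.96 in profound 1. DHX58, their regulator LGP2, read 3.44, 3.52 and 3.43 against 3.64. The differences of profound 1 from control, 0.47, 0.33 and 0.19 log2 units, all stayed below the size rule, and the spread at these levels in this comparison was 0.28, 0.28 and 0.27. IFI16, a sensor of DNA, read 5.31, 5.54, 5.30 and 5.17 in the order control, moderate, profound 1 and profound 2. None of the 9 tested genes of a separate list of sensors and adaptors was called against control, where the shares over all tested genes were 1.46% in moderate, 6.81% in profound 1 and 2.4% in profound 2. EIF2AK2, the double-stranded RNA sensor PKR, ran unlike the RIG-I-like receptors and read 6.92, 6.79, 6.66 and 6.55 in the same order, with control highest.

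The genes of ISG15 conjugation diverged. USP18, the protease that removes ISG15 and also restrains the type I receptor, was the gene of the set that was called lower in both arrays labelled profound. It read 6.10 in control, 5.75 in moderate, 5.16 in profound 1 and 5.49 in profound 2, so that control was the highest array and the other 3 arrays lay below it. The differences were -0.35, -0.94 and -0.61 log2 units, signals 1.27-fold, 1.92-fold and 1.53-fold lower, at spreads of 0.16, 0.28 and 0.18. Over all tested genes, 0.345% were called lower in both arrays labelled profound, which share the control array. ISG15 itself read 5.12, 5.30, 5.55 and 5.31, with control lowest. HERC5, the main ligase that attaches ISG15, read 5.04, 5.00, 4.59 and 4.70 (differences of -0.04, -0.45 and -0.34), and its relative HERC6 read 4.04, 4.51, 3.91 and 3.67. HERC6 was thus highest in moderate and lowest in profound 2.

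OAS2, a synthetase of the second messenger that activates RNase L, was the only type I gene called in the array labelled moderate against control. It read 3.68 in control, 4.47 in moderate, 3.97 in profound 1 and 3.78 in profound 2, and the moderate difference of 0.79 log2 units (1.72-fold) compares with a spread of 0.22. In that comparison 1.46% of all tested genes were called. OASL, a relative without synthetase activity, lay between 4.12 and 4.35. MX1, a GTPase that traps viral nucleocapsids, was also highest in moderate (3.16, against 2.68, 2.74 and 2.79 in control, profound 1 and profound 2), the only array in which it exceeded the table median. MX2 read 3.88, 4.17, 3.73 and 4.14, with moderate and profound 2 close together.

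The membrane proteins that block viral entry were well measured in all arrays. IFITM1 read 7.32 in control, 7.71 in moderate, 7.39 in profound 1 and 6.95 in profound 2. Control and profound 1 lay together, moderate above and profound 2 below, and the distance of 0.76 log2 units between the outer pair passed the size rule. IFITM2 lay between 9.36 and 9.50. IFITM3 read 5.16, 5.27, 4.74 and 4.99, with both arrays labelled profound below the other two. These genes are close paralogues, and cross-hybridisation between their probes was not tested. BST2, or tetherin, which holds budding virions at the cell surface, lay between 8.12 and 8.31.

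SAMD9L and SAMD9 gave the widest contrast. They are neighbouring paralogues that encode antiviral proteins restraining translation and growth, and germline changes in either cause bone marrow failure. SAMD9L read 5.04 in control, 5.62 in moderate, 6.61 in profound 1 and 5.40 in profound 2. Control was the lowest array and profound 1 stood 0.99 log2 units above the next. The differences from control were 0.58, 1.57 and 0.37 at spreads of 0.16, 0.28 and 0.18, and that of profound 1 is a signal 2.96-fold higher. The moderate difference lay just short of the size rule. SAMD9 ran the other way: it read 7.43 in control, 7.36 in moderate, 6.76 in profound 1 and 7.00 in profound 2. Here control was the highest array and profound 1 the lowest. The differences were -0.07, -0.67 and -0.42 (1.59-fold lower in profound 1), at spreads of 0.13, 0.26 and 0.16.

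In the array labelled profound 1 the type I genes called were therefore SAMD9L, SAMD9 and USP18, 3 of 28, where the share over all tested genes was 6.81%. SAMD9L was the only gene of the set past 2-fold there, against 0.804% of all tested genes. In profound 2 the called type I gene was USP18, 1 of 28 against 2.4%. These shares are near those of all tested genes or rest on so few genes that they say little about the set.

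**Figure D2:**
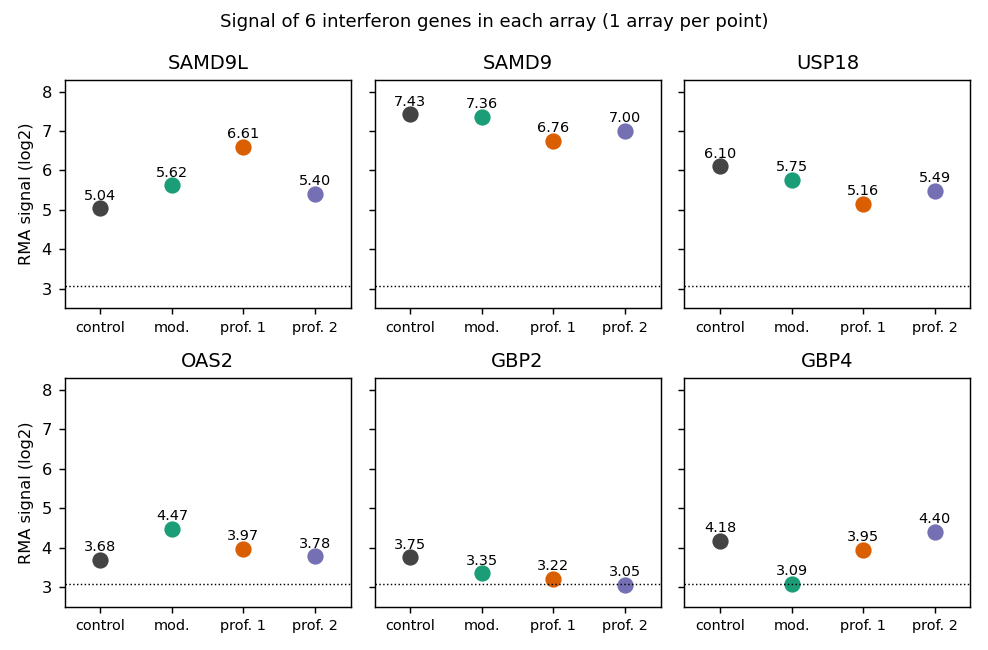
RMA signal in log2 units of the 6 genes called against control, in the 4 arrays (1 point per array, with its value; the dotted line is the table median of 3.08). SAMD9L is highest and SAMD9 and USP18 are lowest in profound 1, OAS2 is highest and GBP4 lowest in moderate, and GBP2 is highest in control.

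Of 10 tested genes grouped as other effectors, SAMD9L and SAMD9 were the 2 called in profound 1 against control. None was called in moderate or profound 2. The shares over all tested genes were 6.81% in profound 1, 1.46% in moderate and 2.4% in profound 2. The uncalled effectors are given here. XAF1, a partner of the apoptosis inhibitor XIAP, read 8.25, 8.34, 8.54 and 8.45 in the order control, moderate, profound 1 and profound 2, with control lowest. TRIM22, a ubiquitin ligase, read 7.02, 7.31, 7.18 and 6.93. RSAD2, which encodes viperin, read 4.08, 4.12, 4.56 and 3.81, so that the arrays labelled profound lay on opposite sides of control and differed by 0.75 log2 units. IFI6, an inner mitochondrial membrane protein, read 5.59, 5.82, 5.19 and 5.82, again with the arrays labelled profound apart (-0.63). PARP9 and DTX3L, which form a complex and start back to back, lay between 4.19 and 4.57 and between 7.20 and 7.36. IFI35 lay between 5.87 and 5.97. IFI27, above the table median in moderate and profound 2 only, lay between 2.83 and 3.26.

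Of the 9 measured interferon-gamma genes, 4 exceeded the table median in at least 1 array, and 2 of these are guanylate-binding protein genes that fall below the table median in part of the arrays. These large GTPases coat vacuoles and membranes of intracellular pathogens. GBP4 read 4.18 in control, 3.09 in moderate, 3.95 in profound 1 and 4.40 in profound 2. The array labelled moderate stood alone near the table median, 1.09 log2 units (2.13-fold) below control, 0.87 below profound 1 and 1.32 below profound 2, at spreads of 0.22, 0.28 and 0.28. GBP2 read 3.75, 3.35, 3.22 and 3.05, with differences from control of -0.40, -0.53 and -0.70 at spreads of 0.25, 0.27 and 0.26, and it was called in profound 2. Its second probe set, below the table median throughout, read 1.88, 2.16, 1.63 and 1.83. GBP3 read 2.95, 2.99, 3.20 and 3.19. The second GBP3 probe set, also below the table median throughout, read 1.45, 1.58, 1.43 and 1.44. Its differences from control were 0.13, -0.02 and -0.01. GBP4 was thus lowest in moderate and GBP2 in profound 2, and the genes GBP1 and GBP5 were at the floor.

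Type I and interferon-gamma genes were then set side by side. Against control the medians of the 28 and the 4 genes were 0.13 and -0.23 log2 units in moderate, 0.06 and -0.02 in profound 1, and 0.02 and 0.18 in profound 2, where the median over all tested genes lay within 0.01 of 0 each time. In moderate, 23 of 28 type I genes were above control and 1 of 4 interferon-gamma genes was, against 6783 of 13060 tested genes. The numbers above control were 16 and 2 in profound 1, against 6497 of 13060, and 15 and 3 in profound 2, against 6487. Without MX1 and IFI27, which exceeded the table median in part of the arrays, 21 of 26 type I genes were above control in moderate. In profound 1 there were 15 and in profound 2 there were 13, and the medians were 0.12, 0.07 and -0.005. Over the 11688 genes above the table median in all 4 arrays, the numbers above control were 6123, 5769 and 5684. The mean of the 4 interferon-gamma genes in profound 2 was -0.025, opposite in sign to their median.

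The arrays labelled profound were also compared with the one labelled moderate, which leaves the control array out. The type I medians were -0.14 in profound 1 and -0.18 in profound 2, and the interferon-gamma medians 0.23 and 0.20. Among 28 type I genes, 5 lay higher in profound 2 than in moderate, against 6217 of 13060 tested genes. In profound 1, 11 of 28 did, against 6324. MX1 and IFI27 were highest in moderate and exceeded the table median in part of the arrays. Without them, 5 of 26 lay higher in profound 2 and 11 of 26 in profound 1. Over the 11688 genes above the table median in all 4 arrays, 5423 and 5581 did. The medians of the 26 genes were -0.16 in profound 2 and -0.09 in profound 1. In profound 1, 5 type I genes were called, SAMD9L higher and USP18, SAMD9, HERC6 and IFI6 lower, against 5.28% of all tested genes, and each of the lower 4 lay between -0.63 and -0.60, just past the size rule. In profound 2, HERC6 (-0.84), IFITM1 (-0.76) and OAS2 (-0.69) were called lower, 3 of 28 against 2.88%. GBP4 was called higher in both. These 2 comparisons share the array labelled moderate.

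Between the arrays labelled profound, SAMD9L (1.20) and RSAD2 (0.75) were higher and IFI6 (-0.63) lower in profound 1, 3 of 28 type I genes against 5.31% of all tested genes. None of the 4 interferon-gamma genes was called. The medians of the lists were 0.11 and 0.03.

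The array in which each gene was highest and lowest was counted over genes above the table median in all 4 arrays, since the others entered through the arrays in which they are high. Of 26 such type I genes, 10 were highest in moderate, 10 in profound 1, 3 in control and 3 in profound 2. Over all 11688 such genes the shares were 23.3%, 30.8%, 22.8% and 23.1%. Moderate was the lowest array for 1 of 26 (OASL), where it was for 18.3% of all such genes. Control was lowest for 8, profound 1 for 8 and profound 2 for 9, against 23.5%, 33.1% and 25.1%. With MX1 and IFI27 included, moderate was highest for 12 of 28 and lowest for 1, against 22.9% and 19.4% of all tested genes. Genes of this set share regulators, so they are not independent counts, and a single array was made per hairpin.

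**Figure D3:**
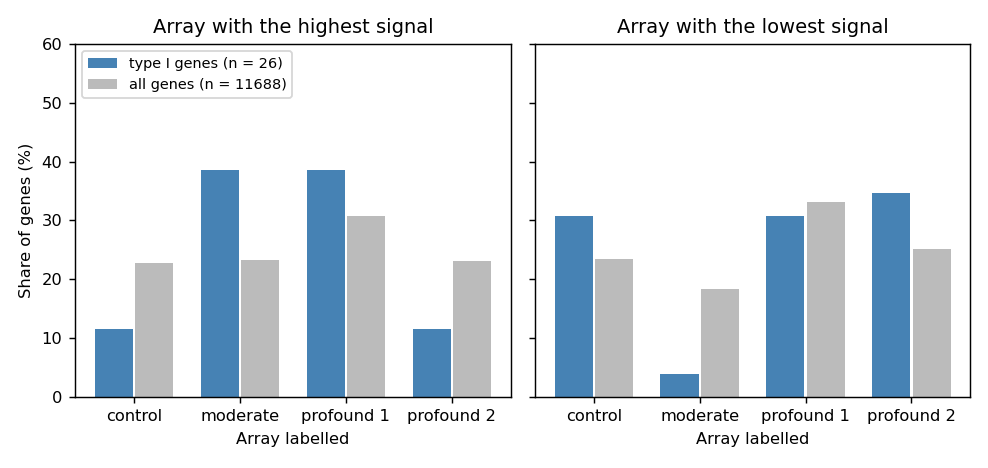
Share of genes, in percent, for which each array held the highest (left) or the lowest (right) of the 4 signals, for the 26 type I interferon genes and all 11688 genes above the table median in all 4 arrays. The array labelled moderate is the highest for 38.5% of these type I genes and the lowest for 3.85%, against 23.3% and 18.3% of all such genes.

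The distance between the highest and the lowest array had a median of 0.43 log2 units over the 32 genes, against 0.31 over all tested genes. It reached 1.5-fold in 10 of 32, against 13.5%, and in 9 of the 28 genes that were above the table median in all 4 arrays. For those 28 the share over all genes of that kind was not computed. Dim genes range more widely. From the dimmest of 6 level classes to the brightest, the shares over all tested genes were 18.4%, 16.6%, 15.8%, 12.3%, 9.69% and 8.36%. In the same order, the genes of the set past 1.5-fold were 1 of 5, 4 of 8, 1 of 8, 2 of 4, 2 of 4 and 0 of 3.

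Comparisons that share no array were also formed, since a deviation of the control array alone would enter every difference from control. Profound 1 minus moderate and profound 2 minus control had the same sign in 18 of the 32 genes (56.2%), and in 56.1% of all tested genes. Across the 32 genes Pearson's r was 0.44 (Spearman's rho 0.36), and r was 0.36 without SAMD9L. It was 0.22 across all tested genes. With the partners exchanged (profound 1 minus control, profound 2 minus moderate), 16 of 32 agreed in sign and r was 0.01. These correlations are across genes that share arrays and regulators, and are given as a description.

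USP18 was the 1 gene of the 32 called in the same direction on both sides of the first pairing, at -0.60 and -0.61 log2 units, where 0.398% of all tested genes were. SAMD9 was at -0.60 and -0.42, SAMD9L at 0.99 and 0.37 and GBP4 at 0.87 and 0.23. In the exchanged pairing none of the 32 was called on both sides, against 0.314% of all tested genes, and USP18 was at -0.94 and -0.27. The remaining pairing (moderate minus control, profound 1 minus profound 2) agreed in sign in 20 of 32 (62.5%), against 57% of all tested genes. Pearson's r across the 32 genes was 0.38 there (Spearman's rho 0.28), and r was 0.29 without SAMD9L. Across all tested genes r was 0.19. None of the 32 was called on both sides of this pairing, against 0.184%.

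**Figure D4:**
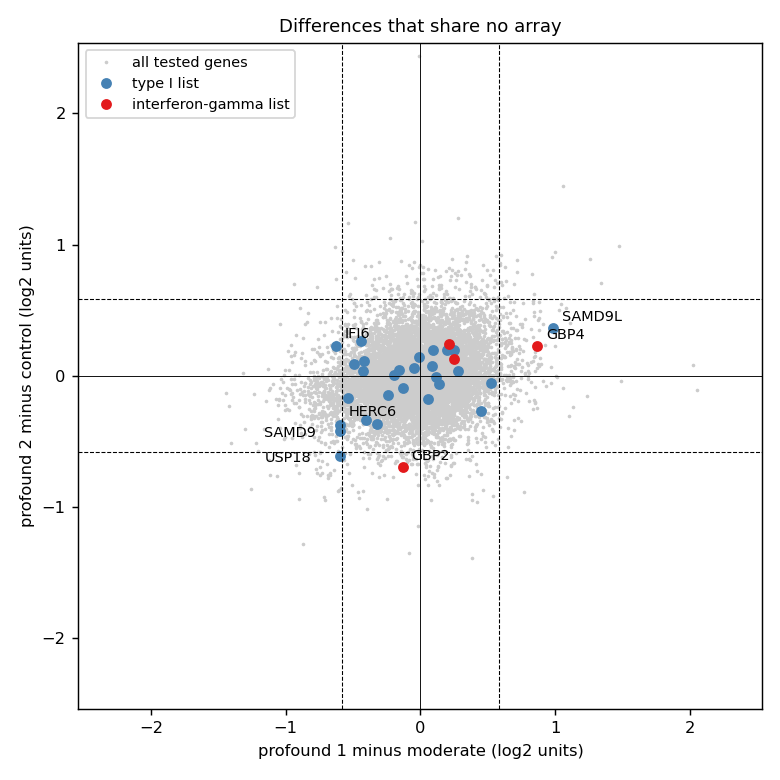
Difference between profound 1 and moderate (horizontal) against that between profound 2 and control (vertical), in log2 units, 1 point per gene, with the 32 interferon genes in colour over all 13060 tested genes in grey; dashed lines mark 1.5-fold. USP18 lies past the lines on both axes, SAMD9L and GBP4 lie to the right, and GBP2 lies low on the vertical axis alone.

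Other interferon-stimulated genes, were listed apart from the 48. Of 27 tested, none was called in moderate, none in profound 1 and 1 in profound 2: HELZ2, a helicase coactivator, which read 3.54 in control, 3.76 in moderate, 4.04 in profound 1 and 4.20 in profound 2 (a difference of 0.66). The spread at the level of HELZ2 in profound 2 against control was 0.25. The shares over all tested genes in these comparisons were 1.46%, 6.81% and 2.4%. The medians of the 27 genes were 0.05, 0.08 and 0.03 log2 units. SAMHD1, which depletes the nucleotides needed for reverse transcription, read 10.10, 10.20, 10.26 and 10.39. UBA7, the enzyme that activates ISG15, read 7.31, 7.54, 7.87 and 7.34 and stayed just short of the size rule in profound 1 (0.56). CMPK2, which lies beside RSAD2 and is usually induced with it, read 5.18, 4.97, 4.72 and 4.97, with control the highest array.

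Antigen presentation genes of class I, shared targets of both interferon types, had median differences from control of 0.12, 0.18 and 0.09 log2 units. These are over 16 tested genes, and 11, 13 and 11 of the 16 were above control in moderate, profound 1 and profound 2. Over all 13060 tested genes, 6783, 6497 and 6487 were above control. These comparisons share the control array. None of the 16 was called, where the shares over all tested genes were 1.46%, 6.81% and 2.4%. HLA-C, a classical class I chain, read 9.39, 9.55, 9.65 and 9.50, and PSMB9, an inducible proteasome subunit, read 3.81, 4.14, 4.35 and 4.04. In both, control was the lowest array and profound 1 the highest. ERAP1, which trims peptides, ran the other way at 5.76, 5.73, 5.38 and 5.60, and ERAP2 and TAP2 were also below control in all 3 arrays.

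**Figure D5:**
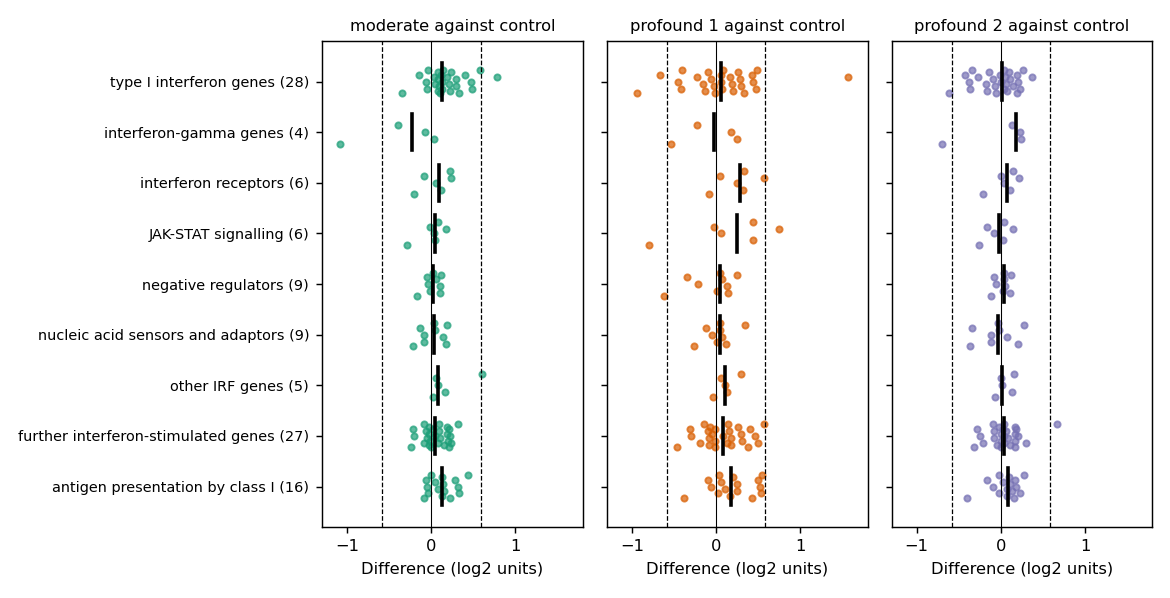
Difference from control in log2 units of every tested gene of the 2 interferon lists and of 7 further lists, for the arrays labelled moderate, profound 1 and profound 2 (points: genes, with their number in brackets; black bars: medians; dashed lines: 1.5-fold). Medians lie between -0.23 and 0.29, and the interferon-gamma list has 4 points only.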

How the data were processed

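Expression was measured on Affymetrix whole-transcript arrays, 1 per hairpin. The authors deposited log2 signals for 53617 probe sets, and the submitters' processing notes list RMA together with Affymetrix Expression Console 1.3.1 and Transcriptome Analysis Console 1.0. For the settings, no source used here gives a value. Quantile normalisation hides any change shared by most genes. Every value column was used (0 unused). Groups follow the genotype field.

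Probe sets with 1 symbol in the platform annotation (23871) named a gene, those with several (1842) or none listed (27904) did not. Symbols were updated through RefSeq GRCh38.p14 (88 by Entrez ID, 565 by synonym). Small RNA, LOC, open-reading-frame, antisense and receptor-segment symbols were left out. Tested genes exceeded the table median in at least 1 array (13060 of 18092). The spread is the scaled median absolute deviation within 6 level classes. The size rule was checked on simulated data. Cyclic loess used limma 3.58.1 in R 4.3.3, and the rest Python 3.11.15 with pandas 2.3.3.

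All measured members of the set may be named, and of other lists up to 3 genes past 1.5-fold per comparison, or the brightest where none passed. Markers and genes listed by name alone are outside that rule, and other genes of these lists that it does not cover (such as IL10RB, EIF2AK2, UBA7, CMPK2, PSMB9, ERAP1, ERAP2 and TAP2) were chosen after their values were seen, as were the RUNX hexamer and the restriction to genes above the table median in all 4 arrays. The members and lists were chosen with earlier results of these data known. The other lists comprise interferons, receptors, JAK-STAT, negative regulators, sensors, IRF genes, further interferon-stimulated genes, class I presentation, and markers of the line and of plasmacytoid dendritic, T and NK, B, fibroblast and epithelial cells.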

Additional observations from a re-analysis of the deposited data

How the results depend on the processing

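No paired analysis was possible because each group holds 1 array, and for the same reason no array could be left out. Of 48 recomputed counts of called genes, 39 stayed within 1.5 times the main count. Of 48 recomputed medians 40 moved by less than 0.1 log2 units. Some medians changed sign, among them interferon-gamma medians given below. The type I median in profound 2 against control went from 0.02 to -0.005 when genes were filtered on their mean over the arrays. Under cyclic loess the differences of SAMD9L, SAMD9, USP18, OAS2, GBP2 and GBP4 from control kept their sign. At 2-fold the type I calls became 0 in moderate, 1 in profound 1, 0 in profound 2 and 1 between the arrays labelled profound, and the interferon-gamma calls in profound 2 became 0. With genes required to exceed the 75th percentile, IRF1 was the only interferon-gamma gene left: the calls became 0 for type I and 0 for interferon-gamma genes in moderate and 0 for interferon-gamma genes in profound 2, and the interferon-gamma median became -0.069 in moderate and 0.18 in profound 1. With the mean of all probe sets of a gene, GBP2 and GBP3 dropped below the filter, the interferon-gamma calls in profound 2 became 0, and the median became -0.58 in moderate and -0.20 between the arrays labelled profound. Without a filter, over 9 genes, it was 0.10 in profound 1 and -0.19 between the arrays labelled profound. The mean in place of the median gave -0.38 in moderate and -0.025 in profound 2. The interferon-gamma medians therefore rest on too few genes to give an order of the arrays. Over all genes the 75th-percentile filter left 35 calls in moderate, 564 in profound 1 and 77 in profound 2 against control, and 380, 104 and 389 in profound 1 against moderate, profound 2 against moderate and profound 1 against profound 2, among 7658 genes. Cyclic loess kept all counts of called interferon genes within 1.5 times.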
